A study of Arabidopsis thaliana with 2 samples.

Results

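The genes described here are those whose signal was moderately lower in the NOT sample than in the WDC sample of Arabidopsis thaliana rosette leaves, by 1.5-fold to just under 2-fold. They were chosen by the measured values themselves. A gene entered when its probe set was annotated to exactly 1 gene, gave a signal above the floor on both arrays and had a WDC signal from 1.5 to below 2 times the NOT signal, with the brightest probe set standing for a gene that had several. The floor was the 40th percentile of all non-control signals, and the lowest signal kept was 12.6. Of 1937 named genes above it on both arrays, 118 met this rule (6.09%), and 111 are described after 7 genes (WRKY6, EXPA4, XTH32, AT5G40150, LTI30, AT4G24820 and AT1G67250) were left out by the definition of the set. Because the same 2 signals chose the genes, all folds below are a description and no test was applied to them.

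The series concerns the action of nitric oxide in plants and holds 2 oligonucleotide arrays, 1 of the sample coded NOT and 1 of the sample coded WDC. Both samples were Col-0 plants at growth stage 3.5, stratified for 1 week at 4 °C and then kept at 22 °C on compost with 24 h of light, and the design text gives 8 pooled plants. The labels do not spell out the codes, the dose or the time, and the treatment text, given for NOT alone, speaks of 4 pooled experiments and of a control without tying it to a code. Ratios are therefore stated as NOT over WDC without saying which sample was treated. Each group has 1 array, so replicates cannot check any difference, and pooling leaves no measure of variation between plants.

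Nitric oxide is a small gaseous radical that plants produce during defence, stomatal closure and hypoxia. It reacts with metal centres and, through S-nitrosylation, with cysteine thiols of proteins, and glutathione and the enzymes that use it buffer these reactions. Its reach into transcription is known to pass through redox-sensitive transcription factors, calcium signalling and targeted protein degradation by the N-degron pathway, in which a ubiquitin ligase marks proteins for the proteasome.

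Facts of the arrays that bear on these genes are few. After trimming 2% at each end the mean signal was 100.1 on both arrays, and the median log2 ratio over 4753 probe sets above the floor was 0.00. The 9 spiked-in hybridisation controls had a median log2 ratio of -0.14, so scaling to them would move the median of all probe sets to 0.14. All 7 named leaf markers of light harvesting and the photosystems were bright, at 398.5 to 3234 in NOT against 344.8 to 3065 in WDC, and the 1 named root marker, the peroxidase AT5G17820, gave 1.2 in NOT against 1.0 in WDC, below the floor. The markers listed for dividing cells, guard cells, vasculature, seed, pollen and flower had no named probe set here. In leaf RNA, fewer cells of a type and less RNA per cell cannot be told apart.

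**Figure D1:**
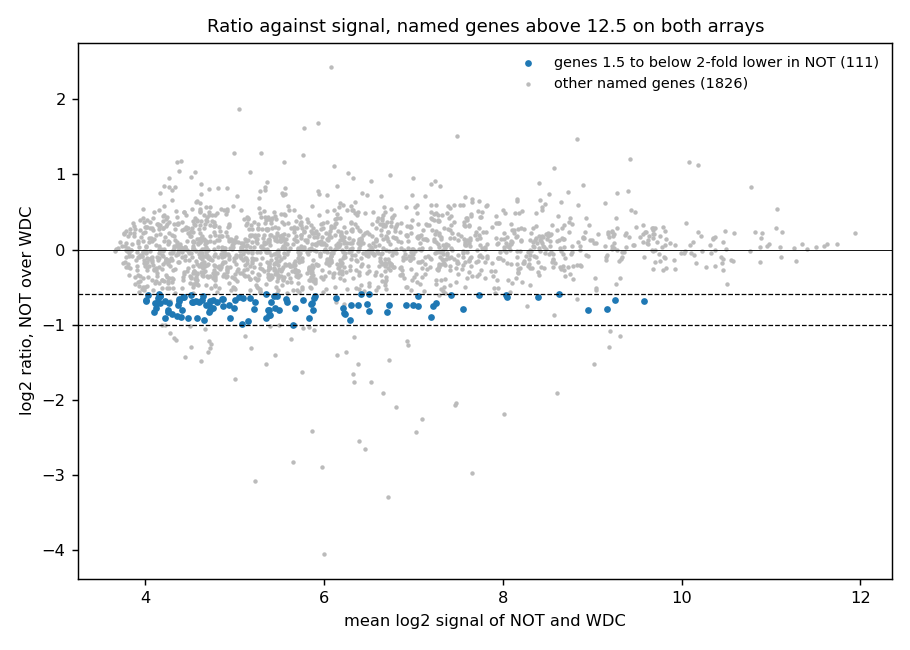
Each point is a named gene, with the mean log2 signal of both arrays on the x axis and the log2 ratio of NOT over WDC on the y axis. The 111 genes (blue) lie between the dashed lines at 1.5-fold and 2-fold lower, and become sparser among bright genes.

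Across the set the NOT signals ranged from 12.7 to 604.1 with a median of 28.3, and the WDC signals from 20.2 to 973.7 with a median of 47.8. The median log2 ratio was -0.72, with quartiles of -0.81 and -0.65, against a median of -0.02 over all 1937 named genes. These figures follow from the rule. Within the band 37 genes were less than 1.6-fold lower and 19 were at least 1.8-fold lower, so the set leans towards its 1.5-fold end.

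Which side held more genes depended on the scaling and the floor. As deposited, 118 named genes lay in the lower band and 70 (3.61%) were 1.5 to below 2-fold higher in NOT, whereas 176 (9.09%) were at least 1.5-fold lower and 91 (4.70%) at least 1.5-fold higher. With the spiked-in controls set equal between arrays the lower band held 67 named genes and the higher band 148. With quantile normalization the counts were 95 lower and 97 higher, and with a floor of 50 they were 37 lower and 42 higher. A floor at the 60th percentile gave 44 on each side. The lower band held more with median scaling (119 against 69), loess (118 against 66) and an offset added to both signals (89 against 60). It also held more without probe sets marked for shared sequence (99 against 55) and with the mean over probe sets (116 against 69). A floor at the 25th percentile gave 179 lower and 117 higher. Counted as probe sets, named or not, 257 of 4753 (5.41%) lay in the lower band, and 135 of those probe sets had no single gene name, so the genes described cover less than all of it.

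The set was dimmer than the named genes as a whole. In 51 of 111 genes (45.9%) the lower of both signals was under 25, compared with 483 of 1937 named genes (24.9%). Only 16 (14.4%) had both signals at 100 or more, compared with 630 of 1937 (32.5%). Part of both gaps is built in, because the rule sets the NOT signal of each gene at least 1.5-fold under its WDC signal. The WDC signal, the higher one throughout the set, had a median of 47.8 in the set and 61.6 over all named genes. When named genes were divided into 4 equal classes of brightness, the lower band held 9.28% of the dimmest class, then 7.02%, 5.17% and 2.89% of the brightest. The band of genes 1.5 to below 2-fold higher ran the other way, at 2.89%, 2.48%, 4.55% and 4.55%. A fold of this size on a dim probe set rests on a small difference in signal, which was 7.30 units for the kinase gene AT1G67470 at 14.5 in NOT against 21.8 in WDC.

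By function 85 of the 111 genes fell into 12 classes, and 26 were given none. The classes were assigned from general knowledge of each gene after the set was known, so they show what the set holds and carry no evidence that a class stands apart from the other genes on the array. The largest were RNA processing and ribosome biogenesis with 15 genes, transcription and chromatin with 9, signalling and calcium with 9, the cell wall with 8 and the ubiquitin and proteasome system with 8. Smaller classes held 7 genes of lipid, wax and specialised metabolism, 6 each of redox chemistry, membrane traffic and transport, and primary metabolism, 4 each of the cytoskeleton and of stress and defence, and 3 of translation.

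**Figure D2:**
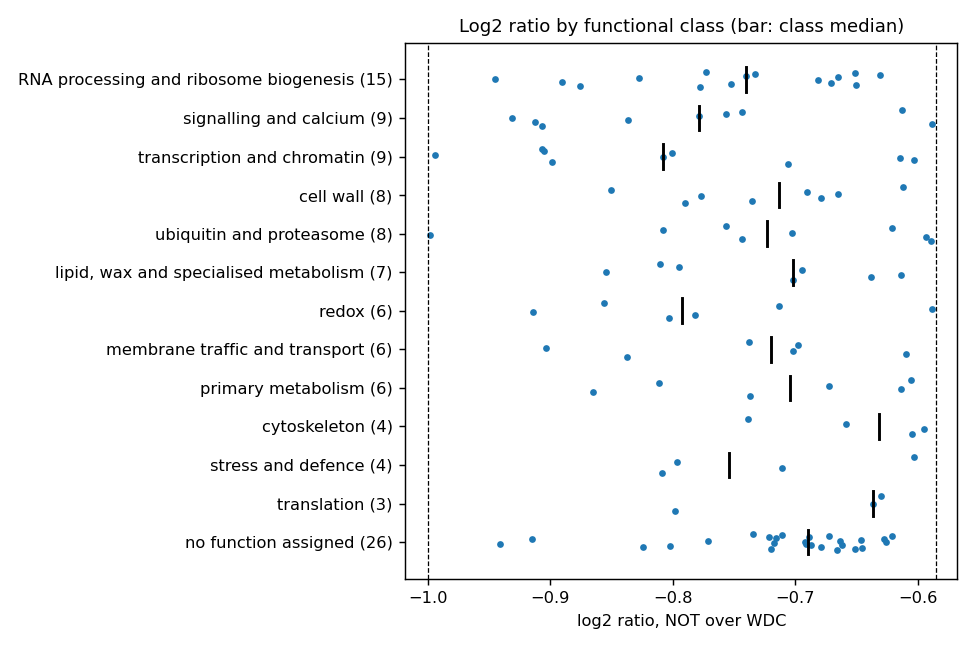
Each point is a gene, placed by its log2 ratio of NOT over WDC on the x axis and by functional class down the page, with the number of genes in brackets and the class median as a black bar. Dashed lines mark 1.5-fold and 2-fold lower, which bound every class by construction, and class medians run from -0.81 for transcription and chromatin to -0.63 for the cytoskeleton.

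Ribosome assembly was represented by several steps of 1 pathway. Ribosomes are built in the nucleolus from rRNA that is cut, folded by RNA helicases and chemically modified by methyltransferases and small nucleolar RNAs (snoRNAs). AT4G15770, a homologue of the large-subunit assembly protein NIP7 of yeast, had a signal of 269.6 in NOT against 417.4 in WDC, 1.55-fold lower in NOT. AT2G37990, a homologue of the yeast assembly regulator RRS1, had 22.5 in NOT against 37.9 in WDC, 1.68-fold lower. AT4G26600, an rRNA methyltransferase of the NOP2 family, had 23.3 in NOT against 36.6 in WDC, 1.57-fold lower. Of these assembly factors NIP7 alone was bright on both arrays, and the signals of the other two lay within a few multiples of the floor.

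A pair of DEAD-box RNA helicases belonged to the set as well. AT4G16630 had 16.0 in NOT against 26.6 in WDC, on a probe set marked for sequence shared with other transcripts. The helicase AT3G16840 was at 16.4 in NOT against 26.3 in WDC. Both were about equally lower, by 1.66-fold and 1.604-fold, and both were near the floor in NOT. AT2G47680, a helicase with a zinc finger, had 15 in NOT against 27.8 in WDC, 1.85-fold lower and also on a marked probe set.

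Both snoRNAs of the set guide or belong to the machinery that modifies RNA in the nucleolus, and were recognised by their RefSeq biotype. AT3G24612 had 25.6 in NOT against 49.3 in WDC, a log2 ratio of -0.95, the lowest of the RNA class. AT5G44286 had 56.6 in NOT against 96.7 in WDC, a log2 ratio of -0.77, while its second probe set read 0.1 in NOT against 0.0 in WDC and so did not detect it. Among all 1937 named genes 6 were snoRNAs, and 2 of these lay in the set. Both were read by probe sets whose IDs carry a mark for an incomplete or relaxed probe design, and their transcripts are short for a method that labels polyadenylated RNA from an oligo(dT) primer, so what these probe sets hybridise was not tested.

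The remaining RNA genes include factors of mRNA and tRNA, and others given here by domain or family alone. AT4G02940, an ALKBH10-type demethylase that removes methyl marks from mRNA, had 64.3 in NOT against 107.4 in WDC, 1.67-fold lower. AT2G45730, annotated as an initiation factor subunit and related to a subunit of the tRNA methyltransferase of yeast, had 43.2 in NOT against 68.8 in WDC, 1.59-fold lower. AT2G33845, a protein with an OB fold that binds nucleic acid, had 31.0 in NOT against 56.9 in WDC, 1.84-fold lower. AT2G34160, of the Alba family of nucleic acid-binding proteins, was 1.57-fold lower at 28.8 in NOT against 45.2 in WDC. The dimmest genes of the class were AT2G21440 with RNA recognition motifs, the pentatricopeptide repeat protein AT3G54980 and the NKAP-like AT4G02720, at 12.8 to 13.3 in NOT against 20.3 to 22.9 in WDC.

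Translation itself was represented by 3 genes. AT5G27470, the seryl-tRNA synthetase that charges serine onto its tRNA, had 212.3 in NOT against 328.5 in WDC, 1.55-fold lower. AT4G17560, a plastid ribosomal protein of the L19 family, had 31.8 in NOT against 55.3 in WDC, 1.74-fold lower. AT4G28360, of the ribosomal L22 family, had 17.3 in NOT against 26.9 in WDC, 1.55-fold lower. Organellar-type ribosomal proteins thus made up 2 of the 3, and the aminoacyl-tRNA synthetase was the bright one.

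The ubiquitin and proteasome class had the gene nearest to 2-fold. In this system E3 ligases, often carrying RING fingers or working with F-box and BTB adaptors, attach ubiquitin to proteins that the proteasome then degrades. AT2G18670, a RING finger protein, had 35.5 in NOT against 70.9 in WDC, 1.997-fold lower. The RING finger gene AT1G55530 had 81.8 in NOT against 137.0 in WDC, 1.67-fold lower. Another, AT1G14200, had 69.6 in NOT against 104.7 in WDC, 1.504-fold lower, and AT2G44581 stood near the floor at 14.5 in NOT against 22.3 in WDC. The 4 RING finger genes thereby spanned the band from end to end.

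Adaptors and the core particle completed that class. The F-box gene AT2G32560 had 44.5 in NOT against 77.9 in WDC, 1.751-fold lower, and its second probe set gave 31.5 in NOT against 43.0 in WDC, a log2 ratio of -0.45 that falls short of 1.5-fold. AT2G24240, with a BTB domain, had 29.3 in NOT against 47.7 in WDC, 1.63-fold lower. SAY1, with a ubiquitin-like domain, had 114.6 in NOT against 193.6 in WDC, 1.69-fold lower. AT1G79210, an alpha subunit of the proteasome core, had 321.4 in NOT against 485.0 in WDC, 1.51-fold lower and among the brightest probe sets of the set.

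Among the 7 genes left out, AT4G24820, the RPN7 subunit of the regulatory particle, was at 281.8 in NOT against 515.4 in WDC, and AT1G67250, the maturation factor of the core, at 237.6 in NOT against 400.9 in WDC. How many proteasome genes were measured in all was not counted, since many carry a locus number only, and the 8 genes that a symbol list for the proteasome and ubiquitin reached all lay within 1.5-fold. With the spiked-in controls set equal, the log2 ratio of AT1G79210 was -0.45, which falls short of 1.5-fold.

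**Figure D3:**
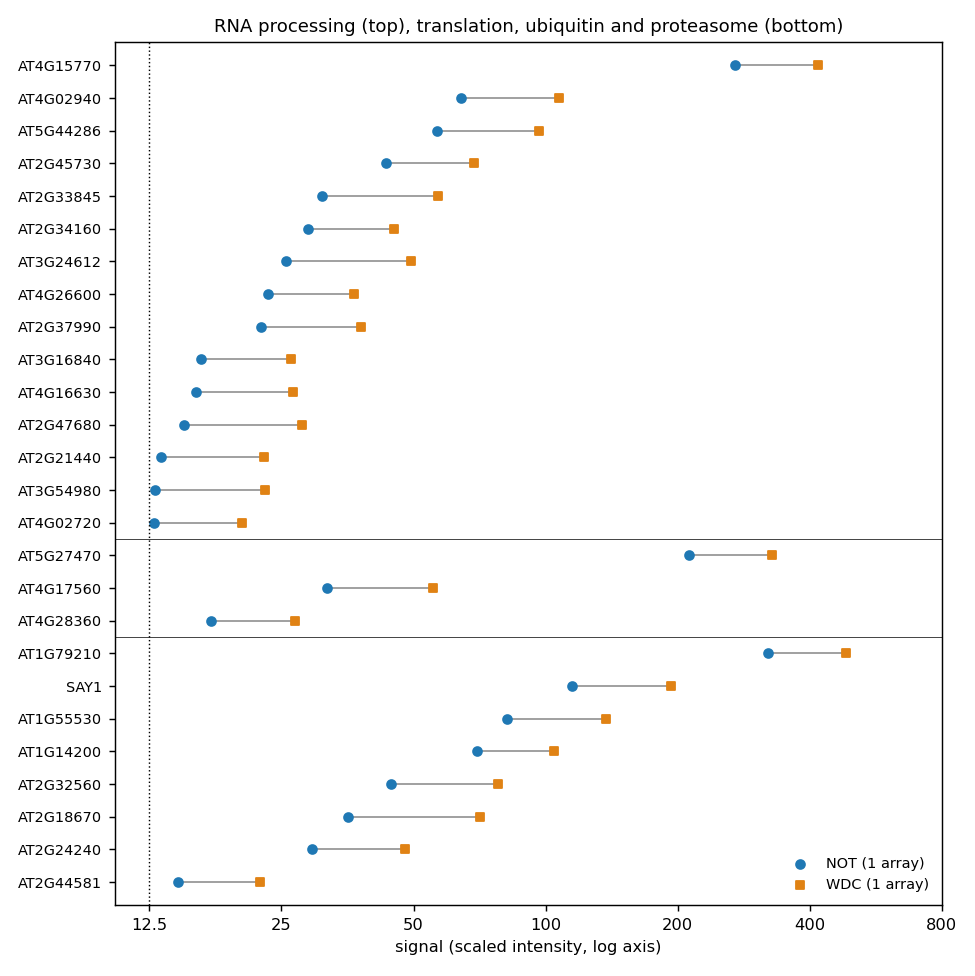
Signals of the genes of RNA processing (15, top), translation (3) and the ubiquitin and proteasome system (8, bottom) on a log axis, with NOT as blue circles and WDC as orange squares joined by a line for each gene. The dotted line is the floor. The gap is similar in all genes by construction, whereas the distance of the NOT signal from the floor differs, from 12.8 for AT4G02720 to 321.4 for AT1G79210.

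Transcription factors of different families were present, none of them bright. HAT2, a homeodomain-leucine zipper factor induced by auxin and linked to shade responses, had 41.5 in NOT against 77.7 in WDC, 1.87-fold lower. HRD (HARDY), an AP2/ERF factor known for drought tolerance when overexpressed, had 13.6 in NOT against 25.5 in WDC, 1.88-fold lower and close to the floor. AT2G29060, of the GRAS family, had 15.5 in NOT against 28.9 in WDC, 1.86-fold lower. These 3 lay nearer to 2-fold than to 1.5-fold, and for HRD and AT2G29060 the NOT signal leaves the size of the fold uncertain.

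AGL19, a MADS-box factor that promotes flowering after cold, was at 14.1 in NOT against 23.0 in WDC, 1.63-fold lower. The PLATZ-type factor AT4G17900 had 48.4 in NOT against 74.1 in WDC, 1.53-fold lower, and the zinc finger gene AT4G17810 had 13.3 in NOT against 20.2 in WDC. AT5G26760, related to a factor for nuclear import of RNA polymerase II, had 24.0 in NOT against 47.8 in WDC, 1.99-fold lower and second to AT2G18670 in the set. Among factors of chromatin, the histone gene AT5G65360, which encodes the replication-coupled form of histone H3, had 374.1 in NOT against 651.6 in WDC, 1.74-fold lower, and the SWIB domain gene AT4G26810 had 34.1 in NOT against 59.7 in WDC. Both signals of the histone gene lay far above the floor.

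Receptor-type and cytoplasmic kinases pass on signals by phosphorylation, and calmodulin-like proteins read calcium. The kinase gene AT3G09010 had 78 in NOT against 139.3 in WDC, 1.79-fold lower. AT1G03740, another protein kinase, had 29.7 in NOT against 55.7 in WDC, 1.88-fold lower. AT4G25390 had 24.3 in NOT against 41.7 in WDC, 1.72-fold lower. With AT1G67470, at the 1.5-fold end of the band, protein kinases made up 4 of the 9 signalling genes.

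CML42, a calmodulin-like protein known from trichomes and insect defence, had 98.3 in NOT against 164.6 in WDC, 1.67-fold lower. AT4G34150, with a calcium-binding domain of the kind that binds lipids, had 102.3 in NOT against 172.8 in WDC, 1.69-fold lower. A gene of the same domain type, AT4G01200, had 18.3 in NOT against 34.9 in WDC, 1.91-fold lower. Calcium-related genes were therefore found at both high and low signal. AT2G14900, of the gibberellin-regulated GASA peptide family, had 16.2 in NOT against 30.5 in WDC, and SWAP70, a PH domain protein named after its mammalian relative, had 20.2 in NOT against 30.9 in WDC.

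Redox genes included 2 of the glutaredoxin family, whose classical members are small enzymes that reduce disulfides and glutathionylated cysteines at the expense of glutathione. AT2G30540 had 22.5 in NOT against 42.4 in WDC, 1.88-fold lower. AT2G47880 had 73.8 in NOT against 111 in WDC, 1.504-fold lower. The 2 thus stood near opposite ends of the band. The measured gene next to AT2G47880 on the chromosome, AT2G47870, which is also a glutaredoxin, had 60.2 in NOT against 73.9 in WDC, a log2 ratio of -0.30 outside the set.

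Other oxidoreductases were ATB2, an aldo-keto reductase at 55.9 in NOT against 101.2 in WDC (1.81-fold lower), and AT4G19880, of the glutathione transferase family, at 15 in NOT against 24.6 in WDC. AT1G30700, a FAD-linked oxidase of the berberine bridge type, had 38.9 in NOT against 66.9 in WDC, 1.72-fold lower. Its second probe set gave 16.6 in NOT against 44.9 in WDC, a log2 ratio of -1.44, so its 2 probe sets agree on the direction and differ in size. The plantacyanin ARPN, a small blue copper protein, had 14.5 in NOT against 25.3 in WDC, and its other 2 probe sets lay below the floor on both arrays, at 1.7 and 7.4 in NOT against 5.3 and 11.7 in WDC.

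**Figure D4:**
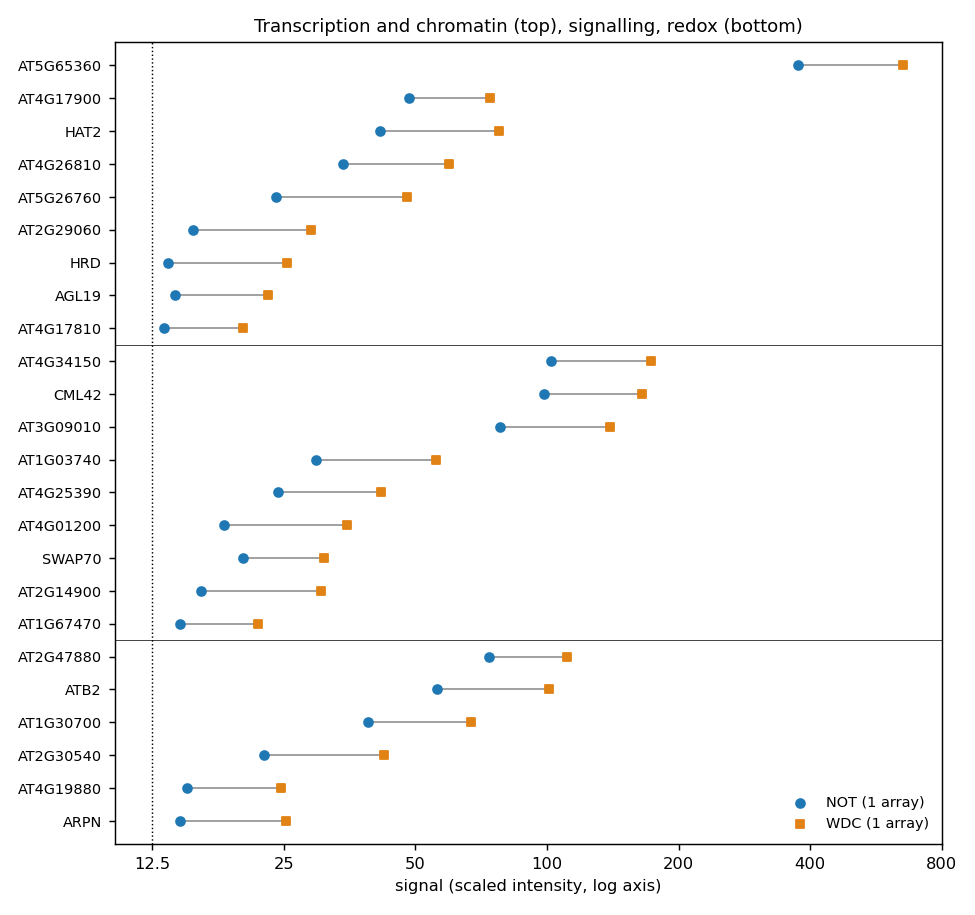
Signals of the genes of transcription and chromatin (9, top), signalling and calcium (9) and redox chemistry (6, bottom) on a log axis, with NOT as blue circles and WDC as orange squares. The dotted line is the floor, and the histone gene AT5G65360, at 374.1 in NOT against 651.6 in WDC, stands farthest from it.

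In the cell wall class, ARA12, a secreted subtilisin-type protease that acts on the wall of seed mucilage, had 437.1 in NOT against 755.9 in WDC, 1.73-fold lower where the probe set carries a mark for sequence in common with other genes. AT4G29020, a glycine-rich protein, had 55.8 in NOT against 100.6 in WDC, 1.803-fold lower. SKU5, a membrane-anchored protein related to multicopper oxidases that affects directional root growth, had 35.0 in NOT against 53.5 in WDC, 1.53-fold lower. The glucan hydrolase gene AT2G05790, also on a marked probe set, had 33.5 in NOT against 57.4 in WDC. AT1G23200, a pectin methylesterase, AT1G09460, with a glucan-binding domain, and the glycosyltransferases AT2G22900 and AT4G13990 had 12.7 to 21.5 in NOT against 20.5 to 34.1 in WDC. Wall genes of the set therefore covered proteases, pectin and glucan enzymes and glycosyltransferases, at 1.53-fold to 1.803-fold lower.

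Among lipid and specialised metabolism, AT4G13840 (CER26), which acts in the elongation of wax precursors, had 107.4 in NOT against 164.4 in WDC, 1.53-fold lower. UGT74D1, a glucosyltransferase that conjugates auxins, had 19.9 in NOT against 34.9 in WDC, 1.754-fold lower. AT4G39230, a reductase of the isoflavone reductase family, had 28.3 in NOT against 49.1 in WDC, 1.73-fold lower. The other 4 genes, the lipase-like AT4G28780 and AT1G10740, the acyltransferase AT2G40230 and the methyltransferase AT4G33120, had 14.2 to 22.0 in NOT against 22.1 to 35.6 in WDC. CER26 was the only gene of the class with both signals above 100.

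Primary metabolism was represented by genes of sulfur, starch, nitrogen and nucleotide synthesis. SIR, the sulfite reductase of sulfate assimilation, had 212.6 in NOT against 323.5 in WDC, 1.52-fold lower on a marked probe set. SBE2.2, a starch branching enzyme, had 68.6 in NOT against 120.4 in WDC, 1.76-fold lower. AT4G32190, a plastid protein of starch granule initiation, had 35.8 in NOT against 54.8 in WDC, 1.53-fold lower. Starch synthesis was thus present with 2 genes that act at different steps. AT1G79470, an IMP dehydrogenase of guanine nucleotide synthesis, had 19.8 in NOT against 33.0 in WDC, AT5G10920, the argininosuccinate lyase of arginine synthesis, had 19.7 in NOT against 31.4 in WDC, and AT2G17280, of the phosphoglycerate mutase family, had 30.9 in NOT against 56.3 in WDC.

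The class of membrane traffic and transport included genes placed there by domain or family alone. AT1G47530, a MATE-type efflux carrier, had 139.0 in NOT against 212.1 in WDC, 1.53-fold lower. AT2G36950, with a heavy metal-associated domain and on a marked probe set, had 107.0 in NOT against 200.2 in WDC, 1.87-fold lower. VPS2.1, a subunit of the ESCRT complex that sorts ubiquitinated membrane proteins to the vacuole, had 93.9 in NOT against 156.6 in WDC, 1.67-fold lower. These 3 stood well above the floor, unlike the Golgi-associated AT1G03260, the phosphate exporter relative AT2G03240 and HVA22C, named after a stress-induced gene of barley, which had 18.0 to 19.7 in NOT against 29.2 to 35.2 in WDC.

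The cytoskeleton class held WLIM1, a LIM protein that bundles actin, at 60.9 in NOT against 101.6 in WDC, and the fimbrin AT5G48460 at 16.6 in NOT against 26.2 in WDC. AT4G32330, a microtubule protein of the TPX2 family, had 33.3 in NOT against 50.3 in WDC. AT4G15930, of the dynein light chain family, had 172.9 in NOT against 263.0 in WDC, 1.52-fold lower. Its second probe set gave 61.4 in NOT against 63.5 in WDC, a log2 ratio of -0.05, so the 2 probe sets of this gene disagree and its place in the set depends on which is read.

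In stress and defence, AT2G28400, related to regulators of senescence, had 142.8 in NOT against 248.1 in WDC, 1.74-fold lower. AT2G27260, of the LEA hydroxyproline-rich glycoprotein family, had 119.1 in NOT against 195.0 in WDC, 1.64-fold lower. The thaumatin family gene AT4G38660 had 18.5 in NOT against 28.1 in WDC, and AT2G19650, with a cysteine-rich domain, had 16.1 in NOT against 28.2 in WDC. Of this small class 2 of 4 genes were thus bright on both arrays.

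The 26 genes without an assigned function include the brightest of the whole set. AT4G25670 had 604.1 in NOT against 973.7 in WDC, 1.61-fold lower, and AT4G36500 had 484.3 in NOT against 772.0 in WDC, 1.59-fold lower. AT2G38450 had 56.5 in NOT against 108.5 in WDC, 1.92-fold lower, and AT4G16880 had 17.4 in NOT against 32.8 in WDC, 1.89-fold lower. The other 22 were AT1G62422, AT1G24267, AT2G15000, AT4G36660, AT4G32030, AT2G41960, AT4G01960, AT2G39500, AT2G28410, AT4G14310, AT4G24130, AT1G15260, AT5G35320, AT2G34310, AT4G09890, AT2G36410, AT2G44230, AT2G17300, AT2G25355, AT4G35940, AT4G24175 and AT2G41650. Their signals ranged from 13.5 to 69.4 in NOT and from 22.2 to 114.3 in WDC, with log2 ratios from -0.82 to -0.62. For AT2G25355 a second probe set read 9.6 in NOT against 9.7 in WDC, and for AT4G24175 1 in NOT against 0.9 in WDC, all below the floor.

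The ends of the band separate genes with nearly equal ratios. At the 2-fold end AT1G27030, with 32 in NOT against 64 in WDC, and EXPA8, with 36.2 in NOT against 72.6 in WDC, lay just outside, at 2.00-fold and 2.01-fold lower, and AT2G18670 and AT5G26760 just inside. At the 1.5-fold end AT1G67470 and AT2G47880 lay just inside, while SAH7, with 133.7 in NOT against 200.5 in WDC, and AT1G23150, with 18.9 in NOT against 28.3 in WDC, lay just outside at 1.4996-fold and 1.497-fold lower. Probe sets of the same gene scattered by an SD of 0.20 in log2 ratio over 93 genes, beside a band 0.42 wide. In the set itself 3 genes had a second measured probe set, and none of these lay in the band. Their log2 ratios were -0.05 for AT4G15930, -0.45 for AT2G32560 and -1.44 for AT1G30700. Another 4 genes, AT3G09440, STZ, AT2G40700 and AT1G07480, had a dimmer probe set in the band while their brightest lay outside, at log2 ratios of -0.15, -0.44, -0.08 and -0.41.

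What the set shared beyond the ratio was limited. A mark for shared sequence or for an incomplete or relaxed probe design was carried by 20 of 111 probe sets (18.0%), compared with 267 of 1937 (13.8%). By chromosome 1 to 5 the set held 4.25%, 5.44%, 3.92%, 6.52% and 11.6% of the named genes measured, against 111 of 1937 over all. The last share was 11 of 95, which is few genes, and was not tested. In the RefSeq order of protein-coding genes and snoRNAs no pair of the set's genes were direct neighbours. AT2G28400 and AT2G28410 came nearest, with only LCR32, which was not measured, between them. Of 25 measured neighbours of its genes 1 was at least 1.5-fold lower and 1 at least 1.5-fold higher, against 9.09% at least 1.5-fold lower among all named genes. The lower neighbour was AT1G30690, next to AT1G30700, with 14.6 in NOT against 35.7 in WDC. The higher one was AT5G44290, next to the snoRNA AT5G44286, with 111.2 in NOT against 65.9 in WDC.

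Gene lists drawn up from symbol patterns give the surrounding genes of each function, but since most genes here carry a locus number in place of a symbol, the 21 lists reached only 173 measured genes and 7 of the set. Over all 1937 named genes 9.09% were at least 1.5-fold lower and 4.70% at least 1.5-fold higher, and lists this short allow no reading against those shares. Among transcription regulators 5 of 25 measured were at least 1.5-fold lower and 1 at least 1.5-fold higher, with a median log2 ratio of -0.02. AGL19 was the gene of the set, and WRKY6, at 1.52-fold lower, was on the list but left out by definition. For redox and detoxification 2 of 27 were lower and 4 higher, with a median of 0.01 and UGT74D1 from the set. The cell wall list had 3 of 9 lower and 1 higher, with a median of -0.19 and no gene of the set. EXPA4 and XTH32, at 1.65-fold and 1.61-fold lower, were on this list but left out by the definition of the set. The median over all named genes was -0.02. These list medians moved with the floor: at a floor of 50 they were -0.44 for transcription regulators, 0.32 for redox and detoxification and -0.44 for the cell wall.

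Of 11 photosynthesis and chloroplast genes and of 8 listed proteasome and ubiquitin genes, all lay within 1.5-fold, with medians of 0.03 and -0.18. Sugar, starch and energy metabolism had 2 of 10 lower, with SBE2.2 from the set, and DNA and chromatin had 1 of 10 lower, which was AT5G65360. Heat, cold, drought and salt response had 3 of 15 lower and none higher, and amino acid and nitrogen metabolism none of 15 lower and 1 higher. Neither list had a gene of the set, and LTI30, at 1.58-fold lower on the former list, was left out by definition. CML42 was the 1 lower gene of 4 on the calcium list, of which 2 were at least 1.5-fold higher, and AT4G13840 the 1 lower gene of 5 on the lipid list, of which 2 were higher. ARA12 matched the pattern for secretion by its letters alone, and was the 1 lower gene of 6 on that list, of which 2 were higher. The defence list had none of 11 lower and 2 higher, with a median of -0.24. Phenylpropanoid and secondary metabolism had none of 4 lower and 1 higher. For RNA processing and for translation the lists reached 1 measured gene each, within 1.5-fold, at log2 ratios of 0.56 and -0.10.

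How many genes kept a 1.5-fold lower signal depended on the scaling. With the spiked-in controls set equal between arrays, 53 of the 111 were still at least 1.5-fold lower in NOT, and with quantile normalization 79 were. The log2 ratio nearest to 0 under any of the scalings was -0.45, with the controls set equal. Under all 4 other scalings and an offset added to both signals, 51 genes kept 1.5-fold throughout. By class these were 7 of 9 signalling genes, 6 of 9 of transcription and chromatin, 7 of 15 of RNA processing and 4 of 6 of redox. The cell wall and ubiquitin and proteasome kept 4 of 8 each, and membrane traffic and primary metabolism 3 of 6 each. Lipid, wax and specialised metabolism kept 3 of 7, stress and defence 2 of 4, the cytoskeleton 1 of 4 and translation 1 of 3. Of the 26 without a function 6 were kept. Setting the controls equal shifts all genes alike and alone left 53. The class counts therefore largely restate how far the deposited ratios lay from 1.5-fold, and are no separate check of any class. The proteasome subunit AT1G79210, SIR and AT5G27470 were not among the 51, although they are bright, because their ratios stood near the 1.5-fold end.

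**Figure D5:**
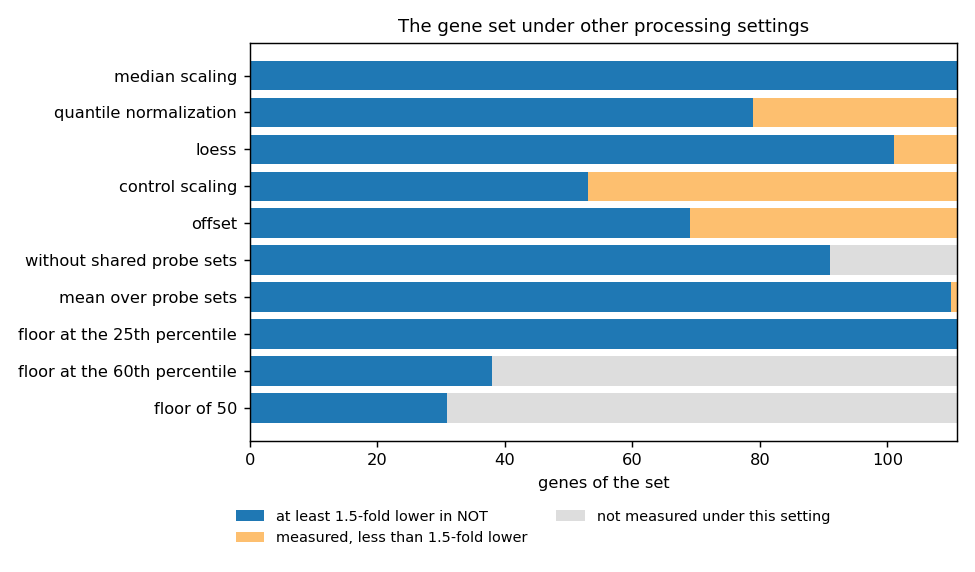
Number of the 111 genes (x axis) that were at least 1.5-fold lower in NOT (blue), less than 1.5-fold lower (orange) or not measured (grey) under each alternative setting. Control scaling left 53 blue, and floors at the 60th percentile or at 50 left 38 and 31 genes measured.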

How the data were processed

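Total RNA of rosette leaves was labelled with biotin and hybridised to Affymetrix arrays of 8297 probe sets, per the labels. Each probe set has 1 deposited intensity per array, on a linear scale, and the values show that the authors had scaled both arrays to a common trimmed mean. How probes were summarised is not given in the sources used, and no detection calls were used.

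Of 8247 non-control probe sets, 3794 were annotated to 1 gene by the platform table and 2041 of these exceeded the floor, the 40th percentile of all non-control values, on both arrays. They stand for 1937 genes, of which 3 had no entry in the RefSeq table (TAIR10.1) used for names, biotype and gene order. Ratios are log2(NOT/WDC) without offset. Only 2 arrays exist, so their number limits precision and no p-value was computed. Gene set, lists and alternatives were chosen with earlier results of these data known, and functional classes by hand after the set was seen. Values were given for the brightest genes, those nearest 2-fold, up to 6 per class, genes with several probe sets and the genes at the ends of the band. Further genes of several classes were given values beyond this rule, chosen after their values were seen. Promoter motifs were not analysed here. The band rule was run on simulated data as a check of its coding only. That run does not show how reliable the measured folds are, in particular those of dim genes. Python 3.11.15, numpy 2.4.6, pandas 2.3.3, statsmodels 0.14.6 (loess span 0.4) and matplotlib 3.10.9 were used.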

Additional observations from a re-analysis of the deposited data

How the results depend on the processing

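The median log2 ratio of the 111 genes ranged from -0.74 to -0.57 over 10 alternatives. Among the 111 genes, floors and leaving out marked probe sets changed no ratio of a gene still measured, and median and control scaling shift all genes alike. Of the other values, 9 with the offset and 2 with the mean over probe sets moved by more than the SD of 0.20 between probe sets of 1 gene. The rule found 65 genes with control scaling (53 of the 111), and 161 probe sets in place of 257. With the offset of 6.25, 69 of the 111 stayed at least 1.5-fold lower. The floor at the 25th percentile (4.3) gave 172 genes, including all 111. The floor at the 60th percentile (40.1) gave 38 genes and 130 probe sets, and a floor of 50 gave 31 genes and 108 probe sets, because fewer probe sets are measured. A band from 1.4-fold held 178 genes. Medians of symbol lists moved with the members left: transcription regulators to -0.43 (60th percentile) and -0.44 (floor of 50), redox and detoxification to 0.32 under both, and the cell wall to -0.44 (floor of 50). No paired analysis was possible because each group has 1 array. The promoter alternatives were not run. Signal over background limits the folds of the 51 genes with a signal under 25.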
